A study of Mus musculus with 20 samples.

Results

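The genes described are 10 regulators of cellular energy stress: the mTORC1 inhibitor genes Ddit4, Deptor and Tsc1, the sestrin genes Sesn1, Sesn2 and Sesn3, the AMPK catalytic subunit genes Prkaa1 and Prkaa2, the coactivator gene Ppargc1a and the arrestin gene Txnip. They were chosen by symbol from 14700 genes, and all 10 were measured in all 20 RNA sequencing libraries. The cells were primary neurons from mouse cortices at embryonic day 15, grown for 7 days, all labelled with the strain C57BL/6N-Cdr1asem1Nikr. Cultures were wild type (WT) or knockout (KO) for the circular RNA ciRS-7, which is made from the Cdr1as locus. For 12 h they had either normoxia (N), with 25 mM glucose and 0.2 mM pyruvate in the medium, or oxygen and glucose deprivation (OGD), at 1% oxygen in the same base medium without these additions. With 5 biological replicates each, the groups are written N_WT and OGD_WT for wild type, and N_KO and OGD_KO for the knockout. The N and OGD library of one number carried the same genotype label (WT1, for instance) and batch, and are called a culture here.

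AMPK is a kinase of 3 subunit types that is switched on when AMP rises against ATP; it favours ATP production and restrains growth. mTORC1 is the kinase complex that drives protein synthesis and growth when nutrients, oxygen and growth factors are at hand. The TSC complex, which contains the Tsc1 product, holds mTORC1 off by inactivating the small GTPase Rheb. Ddit4 encodes REDD1, a hypoxia-induced protein that acts through the TSC complex. Sestrins are stress-induced proteins that restrain mTORC1 through the amino acid branch of the pathway. In neurons the pathway bears on dendrite growth, local translation and survival in ischemia. It is largely controlled by phosphorylation, and RNA levels do not report the activity of either kinase.

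Ddit4 and Txnip had the largest rise and the largest fall of the 10 genes, so the 250 bases before their annotated start sites are shown (RefSeq, GRCm38.p6). Capitals mark letters searched on both strands: ACGTG and GCGTG, the cores of hypoxia response elements, and GTAAACA, a FOXO motif. They also mark a pair of CACGNG words 5 bases apart, the layout of a carbohydrate response element, the site type through which glucose-sensing factors act on Txnip.
Ddit4, chr10:59951771-59952020, minus strand: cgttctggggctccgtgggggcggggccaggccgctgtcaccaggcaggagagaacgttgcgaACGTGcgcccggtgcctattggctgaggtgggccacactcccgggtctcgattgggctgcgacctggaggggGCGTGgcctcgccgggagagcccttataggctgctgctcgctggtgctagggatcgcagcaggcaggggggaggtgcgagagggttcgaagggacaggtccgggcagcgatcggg
Txnip, chr3:96557707-96557956, plus strand: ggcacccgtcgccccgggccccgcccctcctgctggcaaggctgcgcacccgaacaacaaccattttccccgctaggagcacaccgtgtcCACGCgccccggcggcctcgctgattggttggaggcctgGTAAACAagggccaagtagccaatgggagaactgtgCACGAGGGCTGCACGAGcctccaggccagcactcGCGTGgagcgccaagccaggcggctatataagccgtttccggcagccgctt
The RefSeq table held 10 promoters of these genes, with a second one for Sesn1; Deptor was not matched. Over windows of 300 bases (250 before the start and 50 after), ACGTG was in 2 of the 10 (Ddit4 and Ppargc1a) and in 19.6% of all 32851 promoters. GCGTG was in 5 of the 10 and in 32.4% of all. GTAAACA was in 2 of the 10 (Txnip and Sesn1) and in 3.65% of all. TGATGNAA, a composite ATF4 motif, and TGACGTCA, the cAMP response element, were in 0 of the 10, against 3.97% and 1.79% of all. The CACGNG pair was in 16 of all 32851 promoters (0.0487%), and in 1 of the 10, that of Txnip.

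The libraries held between 7071603 and 16657766 recovered reads. Cdr1as had 545 to 1912 reads in the WT libraries and 2 to 16 in the KO libraries, so the genotype labels held in all 20. The share of mitochondrial reads was 13.3% to 20.9% under N and 17.4% to 37.5% under OGD. Of 12 neuron markers, all measured, 7 fell and 0 rose under OGD in WT, and 8 fell in KO. Their summed level ranged from 4989 to 6566 CPM in N_WT, 3179 to 6175 in OGD_WT, 5684 to 5935 in N_KO and 3337 to 4889 in OGD_KO. Of 10 astrocyte markers 8 were measured, 5 rose and 1 fell in WT, and 4 rose and 0 fell in KO; their summed level ranged from 879 to 1572 CPM under N and from 1475 to 2309 under OGD. All 10 proliferation markers rose in both genotypes, from 497 to 846 CPM in sum under N to 976 to 1801 under OGD. Of 8 endothelial and mural markers 3 were tested in each genotype, of which 2 rose (Kdr and Acta2) and 1 fell (Pdgfrb) in WT (median log2 fold change 0.60) and Kdr and Acta2 rose and 0 fell in KO (median 1.11). Pdgfrb, the 1 of them measured in all tables, ranged from 1.48 to 5.98 CPM under N and from 1.19 to 2.67 under OGD. Of 9 oligodendrocyte lineage markers 8 were tested, of which 1 rose and 2 fell in WT and 3 rose and 0 fell in KO; their summed level ranged from 211 to 397 CPM under N and from 281 to 480 under OGD. Of 6 fibroblast markers 2 were tested in WT and 4 in KO, and they did not pass. Of 9 microglia markers 0 were among the genes analysed. Over all genes, 21.6% rose and 22.8% fell under OGD in WT, and 21.0% rose and 19.9% fell in KO. The markers moved with OGD, as did every result on OGD below, and their part in those results was not tested. In such bulk libraries, fewer cells of a type and less RNA per cell cannot be told apart.

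OGD changed 7 of the 10 genes in each genotype, and they were the same 7. Ddit4, Sesn2, Sesn3, Deptor and Tsc1 rose, Txnip and Prkaa2 fell, and Sesn1, Prkaa1 and Ppargc1a did not pass the test (limma, Benjamini-Hochberg adjusted p under 0.05 over all genes). Over all genes, 44.3% passed in WT and 40.9% in KO. The 5 that rose stand beside 21.6% of all genes that rose in WT and 21.0% in KO, and the 2 that fell beside 22.8% and 19.9%. The groups did not overlap for 4 of the 10 genes in WT and 5 in KO, against 26.9% and 25.8% of all genes. The median log2 fold change of the 10 genes was 0.33 in WT and 0.28 in KO, against −0.03 and 0.00 over all genes.

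**Figure D1:**
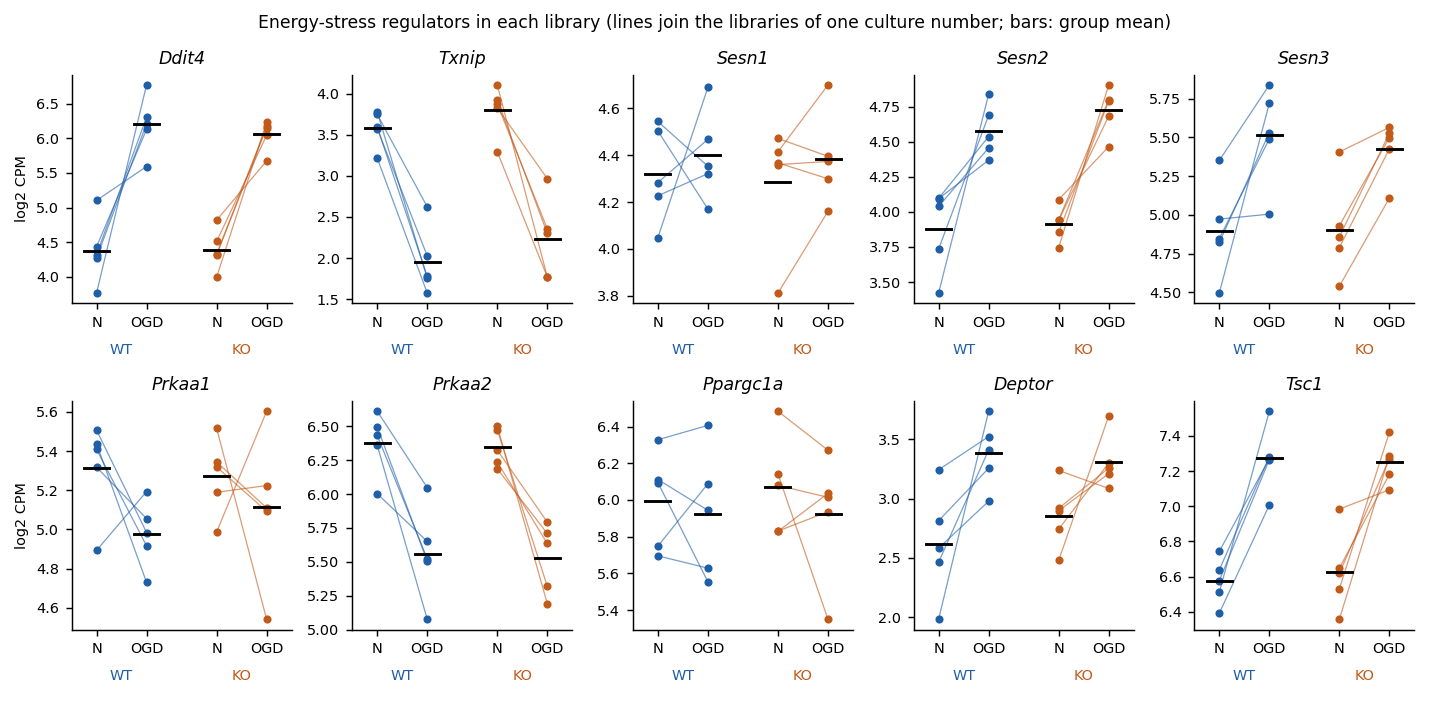
Level of each gene (log2 CPM, vertical axis, a separate range for each panel) in every library of N and OGD, WT in blue and KO in orange; thin lines join the N and OGD library of one culture and black bars are means of 5 libraries. Ddit4 rises in 10 of 10 lines and Txnip falls in 10 of 10, while the lines of Sesn1 and Ppargc1a cross.

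Levels of single libraries are given below in log2 CPM (CPM: reads of a gene after scaling each library to one size) on a scale common to all 20, cultures 1 to 5 in order. A log2 fold change is the difference of group means inside the comparison's own deposited table, with its standard error (SE), from 5 libraries a group, and the p beside it is limma's, adjusted over all genes. The exact permutation tests are two-sided, and their p cannot go below 0.00794 with 5 against 5 libraries.

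Ddit4 was at 4.27, 3.77, 4.43, 4.32 and 5.10 log2 CPM in N_WT and at 6.21, 6.77, 6.13, 6.31 and 5.59 in OGD_WT. In N_KO it was at 4.51, 4.82, 4.32, 4.33 and 3.99, and in OGD_KO at 6.04, 5.67, 6.16, 6.18 and 6.23. Every OGD library lay above every N library, and the closest pair was the N and OGD library of culture WT5. Its log2 fold change was 1.79 (SE 0.21, limma adjusted p = 9.88e-07) in WT, 3.47-fold, and 1.66 (SE 0.16, limma adjusted p = 4.38e-07) in KO, 3.16-fold. The rise within a culture ran from 0.49 (WT5) to 3.0 (WT2) in WT and from 0.86 (KO2) to 2.24 (KO5) in KO. These were the widest differences between cultures of any of the 10 genes in WT. Ddit4 is a short gene (chr10:59949669-59951834, 1755 exonic bases, GENCODE M21 on the mm10 build), and its promoter above holds 1 ACGTG and 1 GCGTG.

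Deptor encodes a subunit that binds and inhibits mTOR itself. It was at 2.46, 2.58, 2.81, 3.24 and 1.98 log2 CPM in N_WT and at 3.41, 2.98, 3.26, 3.52 and 3.74 in OGD_WT, or 29 to 161 reads a library. In N_KO it was at 3.24, 2.90, 2.92, 2.48 and 2.74, and in OGD_KO at 3.09, 3.21, 3.26, 3.70 and 3.30. The groups overlapped in both genotypes, through N_WT culture 4 and N_KO culture 1, and the rise was seen in 5 of 5 WT and 4 of 5 KO cultures. Between the groups the log2 fold change was 0.73 (SE 0.20, limma adjusted p = 0.00493) in WT and 0.45 (SE 0.16, limma adjusted p = 0.0339) in KO.
The KO call was lost with culture as a replicate block (limma adjusted p = 0.0940). It was also lost without OGD_KO replicate 3 (0.47, limma adjusted p = 0.0589) or 4 (0.36, limma adjusted p = 0.0812), or without N_KO replicate 3 (0.46, limma adjusted p = 0.0585), 4 (0.36, limma adjusted p = 0.0801) or 5 (0.42, limma adjusted p = 0.0635). Deptor (chr15:55112317-55259271) shares 280 exonic bases with Gm9920 on the other strand; whether reads were counted by strand is not given in the sources used here.

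Tsc1, the gene of the TSC complex scaffold, was at 6.64, 6.51, 6.58, 6.39 and 6.74 log2 CPM in N_WT and at 7.28, 7.54, 7.26, 7.01 and 7.27 in OGD_WT. In N_KO it was at 6.65, 6.36, 6.62, 6.53 and 6.98, and in OGD_KO at 7.18, 7.29, 7.27, 7.42 and 7.09. All OGD libraries lay above all N libraries of their genotype, and all 10 cultures went up, KO5 least, by 0.11. The rise on the log2 scale was 0.68 (SE 0.14, limma adjusted p = 0.000536) in WT and 0.63 (SE 0.15, limma adjusted p = 0.00211) in KO, 1.61-fold and 1.55-fold.

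Of the 3 sestrin genes, Sesn2 and Sesn3 rose in both genotypes and Sesn1 did not pass the test in either. Sesn2, the sestrin known for induction by stress and for binding leucine, was at 3.74, 4.09, 4.04, 4.10 and 3.42 log2 CPM in N_WT and at 4.69, 4.37, 4.46, 4.54 and 4.84 in OGD_WT. In N_KO it was at 3.94, 3.94, 3.85, 3.74 and 4.09, and in OGD_KO at 4.80, 4.68, 4.79, 4.91 and 4.47. The OGD libraries were above the N libraries without overlap in both genotypes. As a log2 fold change the rise was 0.68 (SE 0.16, limma adjusted p = 0.00169) in WT and 0.81 (SE 0.14, limma adjusted p = 0.000132) in KO. Sesn3, a sestrin known as a FOXO target, was at 4.85, 4.50, 4.82, 5.35 and 4.97 in N_WT and at 5.49, 5.72, 5.53, 5.84 and 5.00 in OGD_WT. It was at 4.93, 4.79, 4.86, 5.41 and 4.54 in N_KO and at 5.50, 5.43, 5.53, 5.56 and 5.11 in OGD_KO. Groups of Sesn3 overlapped in both genotypes through culture 4, which was high in N, and culture 5, which was low under OGD. The gene was higher under OGD in all 10 cultures, least in WT5 (by 0.03) and, in KO, in KO4 (by 0.16). Its log2 fold change was 0.60 (SE 0.17, limma adjusted p = 0.00727) in WT and 0.53 (SE 0.16, limma adjusted p = 0.0131) in KO.

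Sesn1, known as a p53 target, was at 4.05 to 4.54 log2 CPM in N_WT, 4.17 to 4.69 in OGD_WT, 3.81 to 4.47 in N_KO and 4.16 to 4.70 in OGD_KO. These ranges overlapped throughout, and 3 of 5 cultures of each genotype were higher under OGD. Its log2 fold change was 0.06 (95% confidence interval −0.24 to 0.37, limma adjusted p = 0.757) in WT and 0.11 (−0.22 to 0.44, limma adjusted p = 0.606) in KO; scaled by library total instead, it was −0.21 and −0.18.
Levels of different genes are compared per length, as CPM per kilobase of exon. On that scale the sestrins summed to 11.2 ± 1.16 (SD, n = 5) in N_WT and 15.2 ± 0.40 in OGD_WT, and to 11.2 ± 0.70 in N_KO and 15.7 ± 1.14 in OGD_KO. Sesn1 made up 44.7% ± 5.29 (SD, n = 5) of this sum in N_WT and 34.8% ± 4.24 in OGD_WT, and 43.6% ± 5.09 and 33.5% ± 4.73 in KO. Sesn2 made up 37.8% ± 6.89 in N_WT and 45.2% ± 6.00 in OGD_WT, and 38.4% ± 2.22 and 48.5% ± 3.56 in KO. Sesn3, by far the longest of the 3 with 15269 exonic bases, stayed the least abundant per length, with group means of 17.47% to 20.03%. This place rests on the annotated exon length. Not divided by length, Sesn3 had the highest mean log2 CPM of the 3 in every group, as in N_WT (4.90, against 4.32 for Sesn1 and 3.88 for Sesn2). These shares were computed after the values were seen and were not tested.

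**Figure D2:**
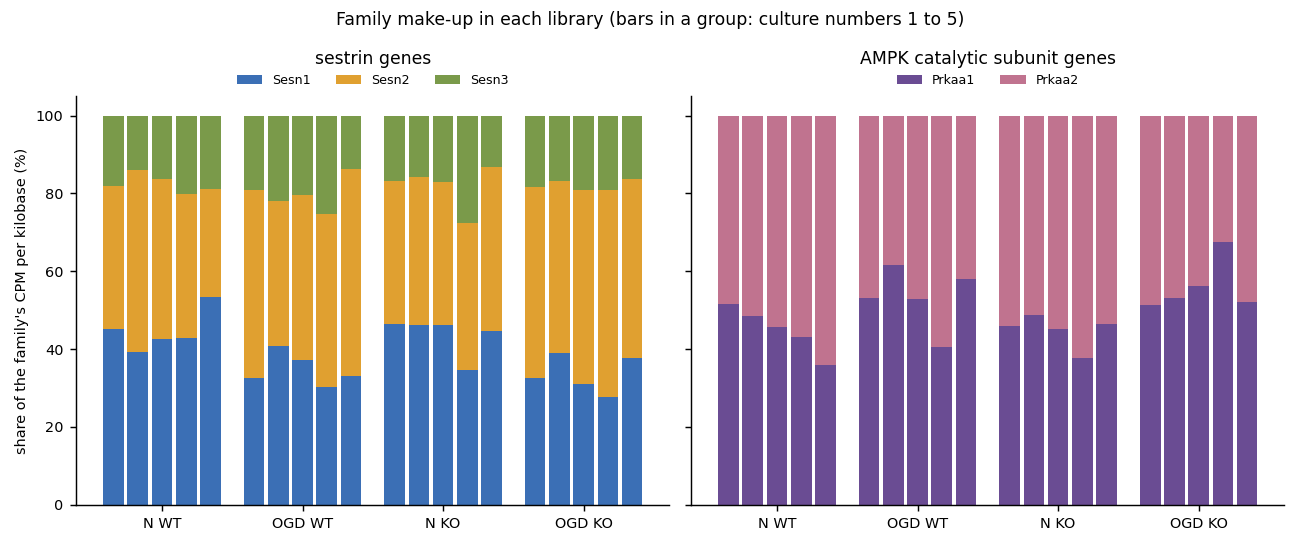
Share of each family's summed level (CPM per kilobase of exon, %) taken by each gene, 1 bar per library, 5 libraries in each group. The mean Sesn1 share is 44.7% in N WT and 34.8% in OGD WT, and the mean Prkaa1 share 45.0% and 53.2%.

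Txnip encodes an arrestin-like protein that holds back glucose uptake and binds thioredoxin, and its RNA is known to follow the glucose supply. It was at 3.60, 3.78, 3.58, 3.22 and 3.75 log2 CPM in N_WT and at 1.78, 1.75, 2.03, 1.57 and 2.62 in OGD_WT, or 98 to 203 and 22 to 60 reads a library. In N_KO it was at 3.93, 3.87, 4.11, 3.29 and 3.83, and in OGD_KO at 2.30, 2.36, 1.77, 1.77 and 2.97. No OGD library reached the lowest N library of its genotype, and all 10 cultures went down. The log2 fold change was −1.59 (SE 0.18, limma adjusted p = 8.76e-07) in WT and −1.51 (SE 0.21, limma adjusted p = 1.86e-05) in KO, 3.01-fold and 2.85-fold lower. Txnip (chr3:96557957-96561883) shares 441 bases of exon with the antisense gene Gm15441, for which no value was analysed here.
Txnip and 3 genes that rose in both genotypes hold the CACGNG pair, in capitals below with 12 bases to each side, in the direction in which it was found.
Txnip, chr3:96557860-96557900, plus strand: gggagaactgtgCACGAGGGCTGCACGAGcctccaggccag
Fnip1, chr11:54438011-54438051, minus strand: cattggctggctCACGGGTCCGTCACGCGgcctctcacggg
Nfkb2, chr19:46304672-46304712, plus strand: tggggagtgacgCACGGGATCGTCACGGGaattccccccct
Rbbp4, chr4:129335566-129335606, minus strand: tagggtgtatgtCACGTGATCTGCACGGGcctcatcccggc
Of the 16 promoters with the pair, 9 belonged to genes in the WT table. Among these 9, Txnip was the 1 gene that fell in both genotypes, and Fnip1, Nfkb2 and Rbbp4 were the 3 that rose in both. Irak1bp1 rose in WT (0.43, limma adjusted p = 0.0378) and did not pass in KO (0.23, limma adjusted p = 0.304). Of all genes, 21.6% rose and 22.8% fell in WT, and 21.0% and 19.9% in KO. Fnip1 had log2 fold changes of 1.58 and 1.38, Nfkb2 of 0.82 and 1.11 and Rbbp4 of 0.52 and 0.50. Nfkb2 and Rbbp4 were named after their values were seen. A match of letters is a description of the window and not a site.

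Of the AMPK catalytic subunit genes, Prkaa2 fell in both genotypes and Prkaa1 did not pass the test in either; their difference was not tested. Prkaa2, which encodes the alpha2 subunit abundant in neurons, was at 6.00, 6.36, 6.43, 6.61 and 6.50 log2 CPM in N_WT and at 5.65, 5.08, 5.52, 6.05 and 5.50 in OGD_WT. In N_KO it was at 6.32, 6.19, 6.24, 6.47 and 6.50, and in OGD_KO at 5.79, 5.71, 5.64, 5.32 and 5.19. The KO groups did not overlap; in WT, N culture 1 lay just below OGD culture 4. All 10 cultures went down. The log2 fold change was −0.83 (SE 0.17, limma adjusted p = 0.00042) in WT and −0.80 (SE 0.15, limma adjusted p = 0.00035) in KO, 1.78-fold and 1.74-fold lower.
Prkaa1, which encodes the widely expressed alpha1 subunit, was at 5.32, 5.51, 5.41, 5.44 and 4.89 log2 CPM in N_WT and at 5.06, 4.98, 4.92, 4.73 and 5.19 in OGD_WT. It ranged from 4.99 to 5.52 in N_KO and from 4.54 to 5.60 in OGD_KO. In WT, 4 of 5 cultures were lower under OGD, all but culture 5, which had both the lowest N and the highest OGD level. The log2 fold change was −0.35 (SE 0.15, limma adjusted p = 0.0636) in WT and −0.15 (SE 0.17, limma adjusted p = 0.524) in KO. Without N_WT replicate 5 the WT value was −0.46 (limma adjusted p = 0.0148), and without OGD_WT replicate 5 it was −0.41 (limma adjusted p = 0.0318). It also passed in WT on the values as deposited, with the extremes drawn inwards (−0.38, limma adjusted p = 0.00515), where 8 of the 10 genes were called.
Per length, both together stood at 19.1 ± 2.00 CPM per kilobase (SD, n = 5) in N_WT and 12.8 ± 1.21 in OGD_WT, and at 18.5 ± 1.53 in N_KO and 13.5 ± 2.27 in OGD_KO. The share of Prkaa1 was 45.0% ± 5.95 in N_WT and 53.2% ± 7.94 in OGD_WT, and 44.9% ± 4.16 and 56.0% ± 6.74 in KO. These sums and shares were not tested.

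Ppargc1a, the gene of PGC-1alpha, which drives mitochondrial biogenesis and is an AMPK substrate, was at 5.70 to 6.33 log2 CPM in N_WT and 5.55 to 6.41 in OGD_WT. It was at 5.83 to 6.48 in N_KO and 5.35 to 6.27 in OGD_KO. The groups overlapped almost wholly. The log2 fold change was −0.09 (95% confidence interval −0.44 to 0.27, limma adjusted p = 0.711) in WT and −0.14 (−0.51 to 0.22, limma adjusted p = 0.545) in KO, with 3 of 5 cultures lower in each genotype.

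**Figure D3:**
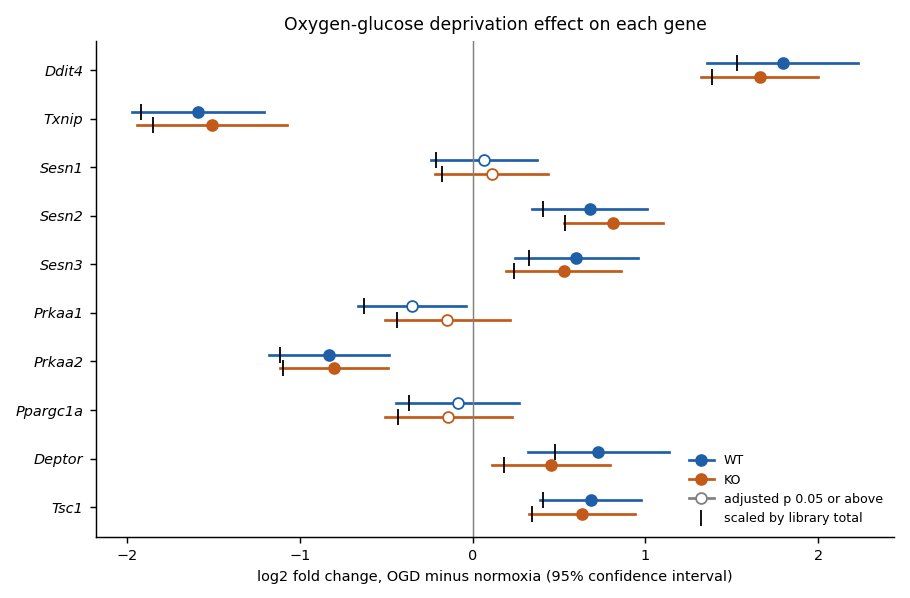
Log2 fold change of OGD against N (horizontal axis) with its 95% confidence interval for each gene in WT (blue) and KO (orange), from 5 against 5 libraries; filled points passed the test, open points did not, and black ticks give the value scaled by library total. Ddit4 stands at 1.79 and 1.66 and Txnip at −1.59 and −1.51, and all ticks lie to the left of their points.

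Single-gene exact permutation tests on the same values, adjusted over the 40 tests of 10 genes in 4 comparisons, left 7 genes in each genotype under 0.05. For Ddit4, Txnip, Sesn2 and Tsc1 in both genotypes, and for Prkaa2 in KO, the exact p was the smallest that 5 against 5 libraries allow, 0.00794 (adjusted 0.0353). For Sesn3 and Deptor in both genotypes, and Prkaa2 in WT, it was 0.0159 (adjusted 0.0454). Prkaa1 in WT had an exact p of 0.0476 (adjusted 0.127).
Scaling the reads by library total moved the median log2 fold change of all genes to −0.30 in WT and −0.28 in KO. On that scale Sesn3 lost its call in WT (0.32, limma adjusted p = 0.111) and KO (0.24, limma adjusted p = 0.276), as did Deptor (0.48, limma adjusted p = 0.0513, and 0.18, limma adjusted p = 0.423). Tsc1 lost it in KO (0.34, limma adjusted p = 0.0910), and Prkaa1 gained it in WT (−0.63, limma adjusted p = 0.00244). Relative to the shifted median, Sesn3 was at 0.63 and 0.52, Deptor at 0.78 and 0.46, Tsc1 at 0.71 and 0.62 and Prkaa1 at −0.33 and −0.16.
Within batch 3 (cultures of batches 3.1, 3.2 and 3.3; 4 WT and 3 KO), the log2 fold changes of Ddit4 were 1.77 and 1.65, of Txnip −1.54 and −1.25 and of Prkaa2 −0.95 and −0.96, all called. In these 3 KO cultures Sesn2 (0.76, limma adjusted p = 0.0675), Sesn3 (0.46, limma adjusted p = 0.329), Deptor (0.69, limma adjusted p = 0.108) and Tsc1 (0.65, limma adjusted p = 0.164) did not pass, while in WT the same 7 genes did. Batches 1 and 2 held too few cultures for a value.

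Ranked per length, Ddit4 led in every group. In N_WT it was at 12.3 ± 4.37 CPM per kilobase (SD, n = 5), followed by Prkaa2 (10.5 ± 1.58), Ppargc1a (9.79 ± 1.80), Prkaa1 (8.59 ± 1.33) and Tsc1 (8.06 ± 0.74). Each of these overlapped the next in range, so their order in N_WT was within the spread. Sesn1 (5.02 ± 0.71), Sesn2 (4.25 ± 0.81) and Txnip (3.82 ± 0.56) formed a lower step, Sesn3 (1.98 ± 0.44) came next, and Deptor was last at 0.70 ± 0.23. Under OGD in WT Ddit4 reached 43.3 ± 12.5 and stood clear of Tsc1 (13.1 ± 1.72), which came next and had ranked the fifth in N_WT. Txnip, at 1.22 ± 0.41, then overlapped Deptor, at 1.17 ± 0.23. In KO the ends were alike: Ddit4 was at 12.1 ± 2.58 in N_KO and 38.2 ± 5.47 in OGD_KO, and Deptor was last at 0.81 ± 0.16 and 1.11 ± 0.19.

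The wider pathway was described with 9 lists of 126 genes in all, of which 119 were tested in WT and 120 in KO. OGD changed 48 of these in WT (26 up, 22 down; 40.3% against 44.3% of all genes) and 44 in KO (28 up, 16 down; 36.7% against 40.9%). Their median log2 fold change was 0.06 in WT and 0.04 in KO. The share called was thus no higher than the background. The counts of each list below stand beside 21.6% of all genes that rose and 22.8% that fell in WT, and 21.0% and 19.9% in KO.
Of 14 tested genes for AMPK subunits and upstream enzymes, 2 rose and 5 fell in WT and 1 rose and 6 fell in KO, with medians of −0.31 and −0.27. Camkk2, the calcium-activated kinase that phosphorylates AMPK, had log2 fold changes of −1.10 (limma adjusted p = 0.000523) in WT and −0.97 (limma adjusted p = 0.000129) in KO. Ppm1e, an AMPK phosphatase, fell by 1.04 and 1.00, and Prkag2, a gamma subunit gene, by 0.71 and 0.67. Camkk2 was lower in 4 of 5 WT cultures and the other values in 5 of 5 cultures.
Of 16 AMPK substrate genes 5 rose in both genotypes, with 1 fall in WT and 0 in KO. Fnip1, a partner of folliculin, rose by 1.58 (limma adjusted p = 5.43e-08) and 1.38 (limma adjusted p = 1.99e-06). Pfkfb3, an activator of glycolysis, rose by 1.54 and 1.32, and the transcription factor gene Foxo3 by 1.37 and 1.18. In WT the Pfkfb3 groups overlapped, and it rose in 4 of 5 cultures, with WT5 at −0.98.

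In the lysosomal amino acid branch, where Rag GTPases and GATOR complexes govern mTORC1, 6 of 26 genes rose and 4 fell in WT, and 5 rose and 3 fell in KO. Fnip1 counts here too, and its partner Flcn rose by 1.21 and 1.22. Seh1l, a GATOR2 subunit gene, rose by 1.23 and 1.08, in WT in 4 of 5 cultures and with groups that overlapped. Castor2, of the arginine sensor family, had −0.98 and −0.82, the lysosomal arginine sensor gene Slc38a9 −0.89 and −0.60, and Rragb, a Rag GTPase gene, −0.60 and −0.51. Slc38a9 was lower in 4 of 5 KO cultures. The KO call of Slc38a9 was lost with the replicate block (limma adjusted p = 0.101), and without any of OGD_KO replicates 1, 2, 3 and 5 or N_KO replicates 1, 3 and 5 (−0.63 to −0.42, limma adjusted p 0.0512 to 0.115).
Of 15 mTORC1 targets 5 rose and 1 fell in each genotype. Eif4ebp1, the gene of the translation repressor 4E-BP1, rose by 1.46 (limma adjusted p = 1.59e-05) in WT and 1.70 (limma adjusted p = 2.19e-06) in KO. Lpin1, a lipin whose nuclear entry mTORC1 controls, rose by 1.16 and 1.08, and Grb10, an insulin signalling adaptor, by 0.91 and 0.90. These 3 genes, named for the largest rises of the list, had no overlap between N and OGD in either genotype. No overlap was seen for 26.9% of all genes in WT and 25.8% in KO.
Of 10 genes of the mTOR complexes themselves, 1 rose and 3 fell in WT, and 3 rose and 1 fell in KO. Telo2, a chaperone of mTOR and related kinases, rose by 0.57 and 0.55; its KO call was lost without OGD_KO replicate 2 or 5 or N_KO replicate 1, 4 or 5 (0.37 to 0.55, limma adjusted p 0.05 to 0.0789). Of 6 genes around TSC and Rheb, 0 rose and 1 fell in WT, and 1 rose and 1 fell in KO.

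Arrdc4, the closest relative of Txnip and likewise known to follow glucose, had log2 fold changes of −1.38 (limma adjusted p = 4.65e-06) in WT and −1.03 (limma adjusted p = 0.000196) in KO, lower in all 10 cultures. Of its list of 9 arrestin and glucose-sensing genes, 2 rose and 2 fell in WT and 1 rose and 2 fell in KO. The 1 RefSeq promoter of Arrdc4 did not hold the CACGNG pair in its window. Among 12 AMPK-related kinases 3 rose and 2 fell in WT and 2 rose and 1 fell in KO. Sik3 had 0.50 and 0.63, and Brsk2, a neuronal polarity kinase gene, −0.61 and −0.76. In WT each moved this way in 4 of 5 cultures. With the replicate block both lost their WT call (limma adjusted p = 0.0795 and 0.0842). The WT call of Sik3 was also lost without any of replicates 1 to 4 of either group (0.34 to 0.50, limma adjusted p 0.0654 to 0.133), and that of Brsk2 without N_WT replicate 4 or 5 (−0.60 and −0.43).
Around Ppargc1a, 3 of 13 genes rose and 3 fell in WT, and 6 of 14 rose and 1 fell in KO. Gabpa and Nrf1, factors for nuclear genes of mitochondrial proteins, had 0.67 and 0.63, and 0.58 and 0.48. Esrrg, a nuclear receptor gene and PGC-1 partner, had −1.03 and −1.28, and was lower in 4 of 5 WT cultures. Scaled by library total, Nrf1, Telo2 and Sik3 lost their calls in both genotypes and Gabpa lost its call in KO. Within batch 3 (3 KO cultures), Prkag2, Sik3, Brsk2, Telo2, Rragb, Castor2, Slc38a9, Nrf1 and Gabpa lost their KO call. Sik3 and Brsk2 also lost their WT call there.

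**Figure D4:**
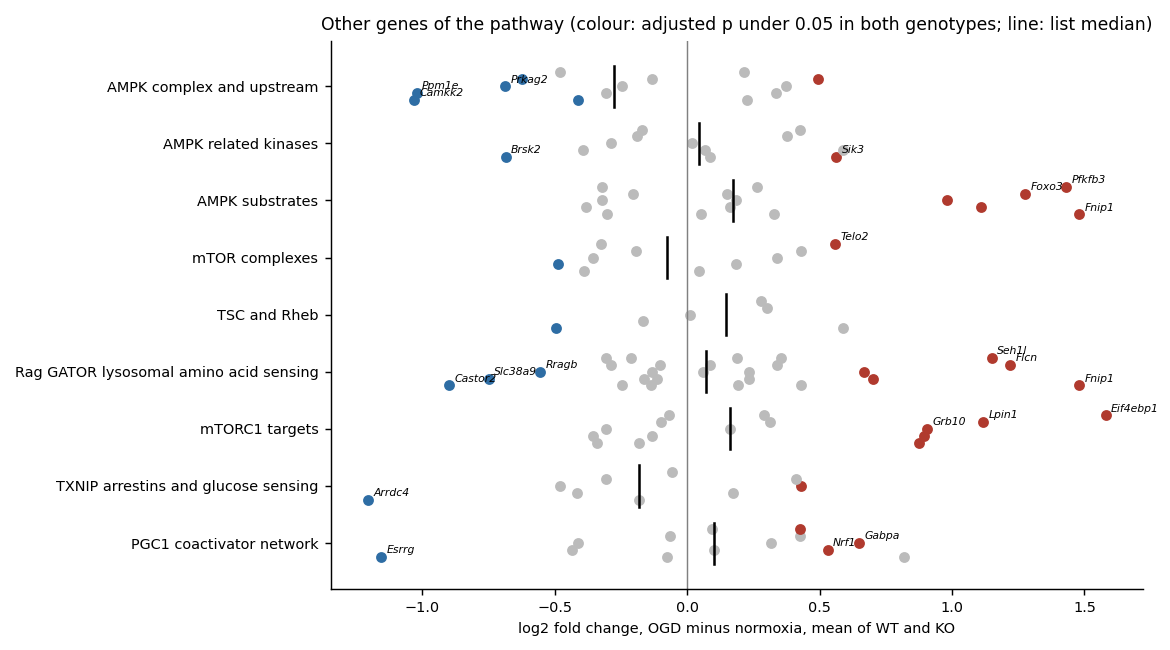
Mean of the WT and KO log2 fold change (OGD minus N, horizontal axis) of each gene of the 9 lists; red and blue points passed the test in both genotypes, grey ones did not, and black lines are list medians. Eif4ebp1, at 1.46 in WT and 1.70 in KO, is farthest to the right, and Arrdc4, at −1.38 and −1.03, farthest to the left.

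In the comparison of ciRS-7 knockout with wild type, 0 of the 10 genes passed the test. In normoxia the KO minus WT log2 differences ran from −0.05 (Prkaa1) to 0.23 (Deptor), and under OGD from −0.15 (Ddit4) to 0.27 (Txnip). By limma 0 of 10 passed in either condition, 0 had an unadjusted p under 0.05, and voom on the recovered reads also called 0, as did the fits with a batch term and within batch 3; over all genes 0.0353% and 0.0282% passed. An unadjusted limma p under 0.05 was rare for any gene, with 256 of 14152 in normoxia and 253 of 14185 under OGD, fewer than a share of 0.05. The smallest exact permutation p was 0.230 in both conditions. The 95% confidence intervals of all 10 genes included 0; the lowest and highest bounds of any gene were −0.41 (Ddit4) and 0.65 (Deptor) in normoxia, and −0.54 (Ddit4) and 0.77 (Txnip) under OGD. Of the 9 pathway lists 0 genes passed in either condition.

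The size of the OGD response did not differ detectably between genotypes either. The difference of the response, KO minus WT, was −0.16 (95% confidence interval −0.77 to 0.46) for Ddit4 and 0.06 (−0.64 to 0.76) for Txnip. It was 0.11 (−0.33 to 0.55) for Sesn2, −0.08 (−0.50 to 0.35) for Tsc1 and 0.01 (−0.51 to 0.52) for Prkaa2. The largest was −0.31 (−0.91 to 0.29) for Deptor. The interaction test in limma called 0 of 10 and 0.0% of all genes, and 0 of the 10 had an unadjusted p under 0.05. Over all genes, 99 of 13688 had one, fewer than a share of 0.05, so such a p was rare for any gene.

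**Figure D5:**
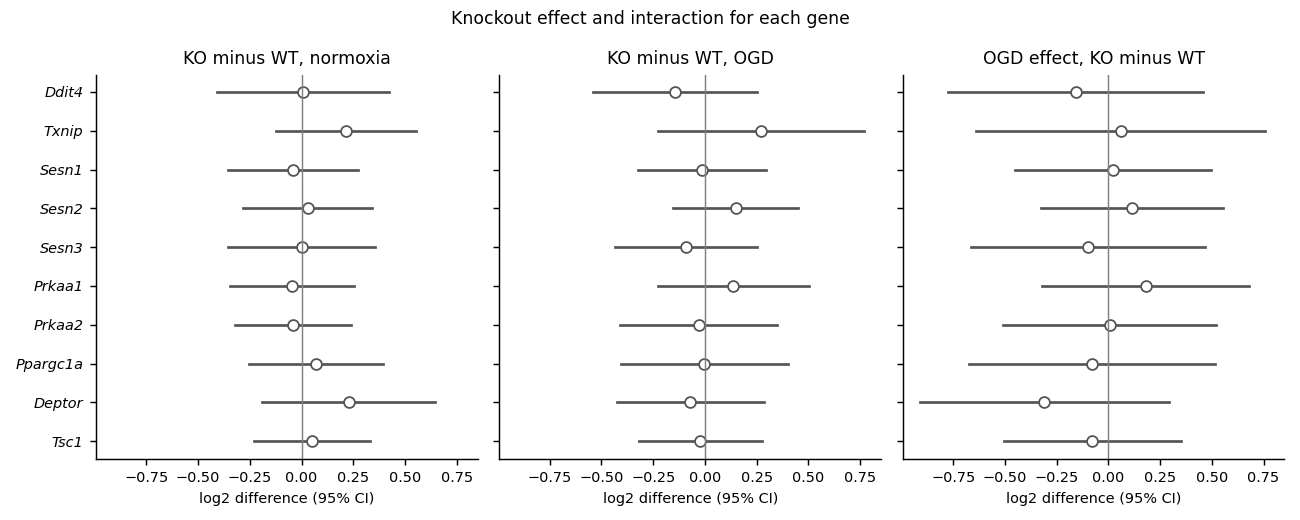
Log2 difference with its 95% confidence interval for each gene: KO minus WT in normoxia (left), KO minus WT under OGD (middle), and the OGD effect in KO minus that in WT (right), 5 libraries a group. Every interval includes 0, and the bound farthest from 0 is −0.91 (Deptor, right panel).

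Levels were also compared within groups, after the 4 group means were taken off, over the 20 libraries. Depth and cell make-up can differ between libraries, and their part in the r values was not tested, so these are descriptions. Among 9374 other genes, those most like Ddit4 were Ruvbl2 (r = 0.93) and Pik3r2 (0.93), those most like Txnip Doc2b (0.91) and Cnot10 (0.91), and those most like Sesn2 Fam102b (0.92) and Eci2 (0.90). Sesn3 was most like Copb2 (0.92) and Cdk14 (0.91), Prkaa2 like Rgs7bp (0.95) and Dmxl1 (0.91), Deptor like Syt16 (0.83) and Atp1b2 (0.82), and Tsc1 like Stk3 (0.90) and Fez2 (0.90). None of these 14 genes is on the 9 lists. Among the 10 genes themselves, Sesn2 varied with Prkaa1 (r = 0.82) and Deptor (0.73) and against Ddit4 (−0.63), and Txnip against Sesn3 (−0.79) and Ppargc1a (−0.77). Ddit4 and Sesn2 both rose under OGD in all 10 cultures. Culture WT5 had the smallest WT rise of Ddit4 (0.49) and the largest of Sesn2 (1.42), and WT2 the reverse (3.0 and 0.27). In KO, KO5 had the largest rise of Ddit4 (2.24) and the smallest of Sesn2 (0.38). The other KO cultures went the other way, both rises growing from KO2 (0.86 and 0.74) through KO1 (1.53 and 0.85) and KO3 (1.84 and 0.94) to KO4 (1.85 and 1.16).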

How the data were processed

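RNA was taken with TRIzol and treated with DNase, and total RNA libraries were made with a stranded kit, per the labels' protocols. The authors deposited 4 tables of log2 CPM, one per comparison; the genome build is mm10 per the submitters' processing notes, and the aligner, counter and scaling are not given in the sources used here. The deposited log2 values had their extremes in each gene and group drawn inwards, as by winsorizing at the 10th and 90th percentile (inferred from the values). This was undone: at least 99.91% of values then gave whole reads within 0.05 reads (genes of up to 500 reads), against 45.5% to 92.8% as deposited. Each comparison was fitted in its own table with limma 3.58.1 (trend, R 4.3.3), called at an adjusted p under 0.05. The interaction used the recovered reads of 13688 genes on 1 median-ratio scale (prior count 2), with culture as a random block. The correlation within a culture was estimated at −0.19, a negative value. Per-length levels divide CPM on that scale by GENCODE M21 exonic length. The code was tested on simulated data.

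By the labels, the N and OGD library of a number share a genotype label and a batch. Calling such a pair a culture rests on these shared labels. In the 10 pairs, the libraries' deviations from the group means correlated over genes at −0.74 to 0.06, with 0 pairs over 0.1. Numbers of WT and KO share no batch beyond the first. The 10 genes, the lists and the tests were chosen with earlier results of these data known. Named from the lists were genes called in both genotypes with the same sign and a mean size of at least 0.5, at most 3 up and 3 down a list. Alternatives were the deposited values as they stand, other scalings, pseudocounts and filters, voom, batch, blocks and each library left out.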

Additional observations from a re-analysis of the deposited data

Results flagged for a closer look

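Of 40 gene and group combinations examined for a library far from the other 4, 1 stood out, and chance alone flags about 2 in 40. Sesn1 in N_KO was at 3.81 log2 CPM in replicate 4, while the other 4 libraries lay between 4.36 and 4.47.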

How the results depend on the processing

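Depth limits Deptor and Txnip most, with 29 to 161 and 22 to 226 reads a library. Of the 10 genes' values under the alternatives, 871 kept their direction and side of the threshold or had no call to lose, 15 lost a call, 4 gained one and 0 reversed. Beyond those, batch 3 alone called 28 list genes in WT and 18 in KO, 2341 genes and 3 of the 10 in KO (fewer samples); exact tests there passed 5 of the 10 in WT and 0 in KO, where 3 against 3 libraries cannot go below 0.10. Library total scaling called 4 of the 10 in KO, and turned the split of calls from 3069 up and 3244 down to 1625 and 5744 in WT, and from 3021 and 2863 to 1479 and 5289 in KO. The values as deposited called 8 of the 10 in WT (Prkaa1 gained) and 71 list genes in KO. Knockout effects were 5 genes in normoxia, against 9 as deposited, 3 over genes whose mean was 1 log2 CPM or more, 2 in batch 3 and 3 with the replicate block. Under OGD they were 4, against 12 as deposited, and 2 each with library total scaling, the batch term and the replicate block; the cause was not tested. Leaving out 1 library gave 3 to 5 and 1 to 7 genes for these, with 0 of the 10 called, though 0 to 1 passed the exact test in normoxia. For OGD it gave 5250 to 6635 genes (7 to 8 of the 10, 36 to 55 list genes) in WT and 4908 to 5930 (6 to 7, 33 to 46) in KO. The replicate block called 7 of the 10 in WT and 6 in KO and changed no call of them but Deptor's; numbers that WT and KO share are numbers only, with r of −0.20 to 0.25.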
